A study of Mus musculus with 24 samples.

Results

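Sleep-restricted and undisturbed mice were compared 7 h after lights on (zeitgeber time 7, ZT7) by the RNA of the mediobasal hypothalamus (MBH), a tissue block that takes in the arcuate and ventromedial nuclei and the floor of the third ventricle. The arrays were chosen by their titles alone: 3 of timed sleep restriction (TSR) and 3 of controls (CON), 6 of the 24 arrays of the series. In the TSR schedule, gentle handling kept mice awake each day between ZT0 and ZT6; 5 such days were followed by 2 days of free sleep and by 5 more days of handling. The CON mice at ZT7 had been left undisturbed beside them. Every animal was of the background strain given as C57BL76J; the labels state neither age nor sex, nor on which day of the schedule the mice were sampled. ZT7 falls 1 h after the daily handling window closes, in the part of the light phase in which mice mostly sleep. The series states 3 mice for each time and condition, so each value below is read as 1 mouse.

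The MBH gathers signals on energy balance, stress and time of day. Arcuate neurons make the appetite peptides and release hormones that reach the pituitary, tanycytes and ciliated ependymal cells line the ventricle, and the neighbouring paraventricular and suprachiasmatic nuclei make stress and thyroid hormones' releasing factors and hold the central circadian clock. Sleep loss is known to raise activity-dependent genes and chaperones of the endoplasmic reticulum in rodent forebrain, and to shift the expression of clock genes. Cholinergic neurons of the basal forebrain and striatum lie in front of and above the hypothalamus.

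Values are log2 probe-set signals of Affymetrix arrays, so that a higher value means more RNA for the same probe set; a group mean below 5.82, the 40th percentile of the named probe sets, is called dim. The 6 ZT7 arrays were alike, with interquartile ranges of 2.96 to 3.22 log2 units and a median rank correlation with the other 5 of 0.987 to 0.989. Differences are TSR minus CON with the moderated standard error of limma, and a gene passed with a 2-sided limma p, adjusted by the Benjamini-Hochberg method over 21789 probe sets, below 0.05. Of the markers of the MBH itself, the arcuate appetite peptide Npy lay at 6.96 to 7.29 in TSR mice and 6.98 to 7.63 in CON mice, and the ventromedial factor Nr5a1 at 5.51 to 5.66 in TSR mice and 5.56 to 6.08 in CON mice. Nr5a1 was dim in both groups, as was Pomc, the precursor of the satiety peptide alpha-MSH, at 5.63 to 5.80 in TSR mice and 5.53 to 5.93 in CON mice, and Agrp is not analysed here. In bulk tissue, fewer cells of a type and less RNA per cell cannot be told apart.

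Sleep restriction was followed at ZT7 by broad change in both directions. Of 19938 genes, 966 were higher in TSR mice (4.85%) and 940 were lower (4.71%), 1906 in all (9.56%), and the median difference over all genes was 0.02. These shares are the background for each list count below. The highest rises were those of cholinergic and forebrain neuron genes, led by the choline transporter Slc5a7. The deepest falls were those of the thyrotropin-releasing hormone gene Trh, of small noncoding RNAs, of suprachiasmatic genes and of genes of motile cilia. The count of probe sets depended on the fit: 2226 of 21789 passed in the main fit, and 1128 without the limma trend. When all 24 arrays shared 1 spread, 83 passed. With the 20 arrays left after dropping those with an interquartile range below 2.5, 3531 passed, and with array weights 4962. In the plot of all genes the rises reach further than the falls: Slc5a7 stands at 3.16 and Trh at -1.54.

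**Figure D1:**
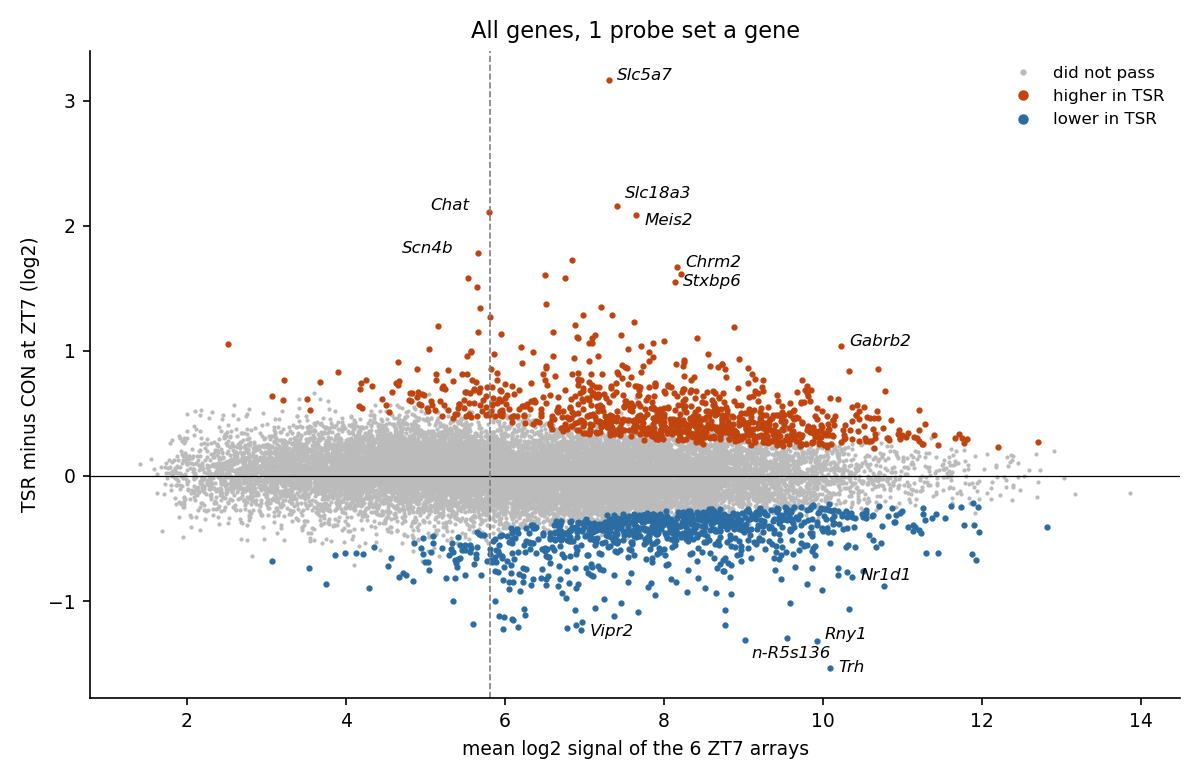
Difference of TSR minus CON at ZT7 (log2, vertical) against the mean log2 signal of the 6 arrays (horizontal) for 19938 genes, 1 probe set a gene; the dashed line is the dim level of 5.82. Orange points were higher in TSR mice (966 genes), blue points lower (940 genes), and grey points did not pass.

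Genes of cholinergic neurons rose most. Slc5a7, which takes choline back into the nerve terminal, had 9.05, 8.72 and 8.91 in TSR mice, against 5.87, 5.69 and 5.63 in CON mice, a difference of 3.16 ± 0.11 or 8.96-fold (limma adjusted p = 3.72e-09). Slc18a3, the vesicular acetylcholine transporter, had 8.53, 8.51 and 8.42 in TSR mice, against 6.20, 6.14 and 6.65 in CON mice (2.16 ± 0.13, limma adjusted p = 6.20e-07). Chat, the enzyme that makes acetylcholine, had 6.89, 6.78 and 6.92 in TSR mice, against 4.62, 4.52 and 5.13 in CON mice (2.11 ± 0.16, limma adjusted p = 6.53e-06). In each of these genes all 3 TSR mice stood far above the highest CON mouse, and the CON means of Slc5a7 and Chat were dim. The muscarinic receptor Chrm2 had 8.999, 8.96 and 9.06 in TSR mice, against 7.32, 7.45 and 7.23 in CON mice (1.67 ± 0.09, limma adjusted p = 3.65e-07). The LIM homeobox factor Lhx8, which specifies forebrain cholinergic neurons, had 7.45, 7.76 and 7.43 in TSR mice, against 6.12, 5.82 and 5.94 in CON mice (1.59 ± 0.13, limma adjusted p = 9.07e-06). The vesicle protein Slc10a4 had 6.23, 6.54 and 6.22 in TSR mice, against 4.18, 4.98 and 5.07 in CON mice, where it was dim (1.59 ± 0.21, limma adjusted p = 0.000374). Again no TSR mouse overlapped a CON mouse. Non-overlap was a condition for naming the largest rises and falls, so here and below it describes the values and is no further test.

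Of 12 genes in the list of forebrain cholinergic neurons, 7 were higher, 2 were lower (1 without TSR replicate 1 or 2) and 3 did not pass, and the median difference was 1.34, against 0.02 over all genes. The seventh riser was the neurotrophin receptor Ngfr (1.10), and the members that fell were the endopeptidase Ecel1 (-0.55) and the zinc finger factor Zic4 (-0.47). Acetylcholinesterase, Ache, was at -0.24 and the motor and striatal cholinergic factor Isl1 at 0.31. Neither passed in the main fit, and both passed with array weights and with 20 arrays. The mean level of the list was 7.71 to 7.77 in TSR mice and 6.63 to 6.77 in CON mice. This list, like the others, was chosen with earlier results of these data known, so its counts and median are descriptive. Chat and Slc18a3, which share a locus in mammals, differed by 2.11 and 2.16.

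Cholinergic genes varied widely with time in CON mice. Over the 20 arrays of usual distribution, the mean of Slc5a7 was 8.67, 8.89, 8.004 and 7.36 in TSR mice at ZT1, ZT7, ZT13 and ZT19, and 8.40, 5.73, 6.15 and 5.46 in CON mice at the same times. In these 20 arrays the CON value at ZT19 is 1 array, and the TSR means at ZT1 and ZT13 rest on 2 arrays each. Chat in CON mice averaged 6.46 at ZT1, 4.76 at ZT7 and 5.14 at ZT13, and was 4.86 in the 1 array at ZT19. So the level of CON mice varied between times more widely than it differed from TSR mice at ZT13 and ZT19, and at ZT1 it lay close to that of TSR mice. How much basal forebrain each sample held was not tested.

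**Figure D2:**
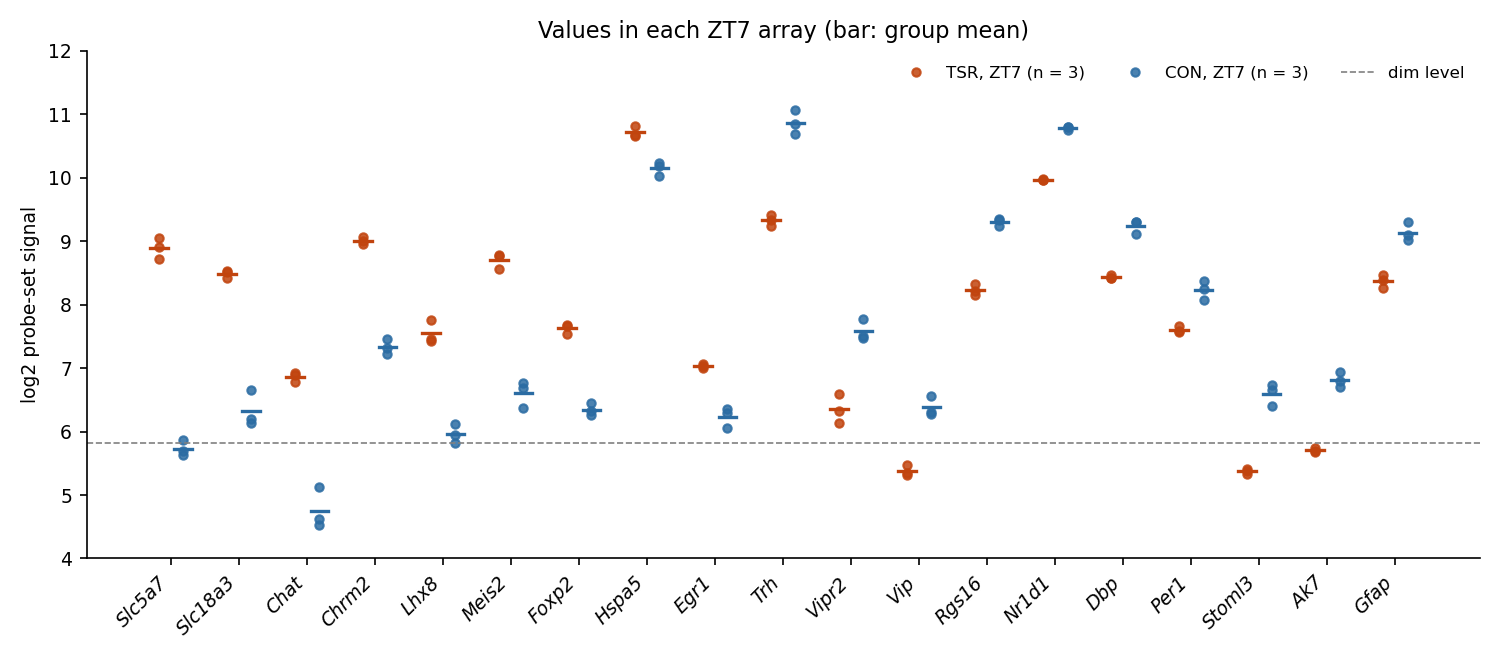
Log2 probe-set signal of 19 named genes in each ZT7 array, with TSR mice in orange left of CON mice in blue (n = 3 each); short bars are group means and the dashed line is the dim level. The groups do not overlap in any of these genes, which for the largest rises and falls was a condition of being named.

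Genes of striatal neurons were higher as a group. Of 18 list members with a probe set, 11 were higher and 0 lower, with 7 that did not pass, and the median difference was 0.50. Meis2, a homeobox factor of striatal and other forebrain neurons, had 8.55, 8.76 and 8.78 in TSR mice, against 6.77, 6.69 and 6.37 in CON mice (2.09 ± 0.11, limma adjusted p = 4.45e-07). The dopamine receptor Drd3 had 6.58, 6.85 and 6.75 in TSR mice, against 5.65, 5.64 and 5.80 in CON mice, where it was dim (1.03 ± 0.12, limma adjusted p = 0.0002). The dopamine receptor Drd1 differed by 0.92 ± 0.12, the retinoic acid receptor Rarb by 0.96 ± 0.13 and the substance P precursor Tac1 by 0.83 ± 0.11, with limma adjusted p of 0.000449, 0.000572 and 0.00035. In all 5 of these genes the 3 TSR mice were above the 3 CON mice. The mean level of the list was 7.85 to 7.91 in TSR mice and 7.29 to 7.31 in CON mice.

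Among genes of cortical and thalamic excitatory neurons, 4 of 17 were higher and 0 lower, against 4.85% and 4.71% of all genes. The forkhead factor Foxp2 had 7.66, 7.68 and 7.54 in TSR mice, against 6.32, 6.25 and 6.46 in CON mice (1.28 ± 0.10, limma adjusted p = 1.01e-05). The transcription factor Mef2c had 8.40, 8.34 and 8.45 in TSR mice, against 7.31, 7.31 and 7.38 in CON mice (1.06 ± 0.09, limma adjusted p = 9.07e-06), and Tcf7l2, the Wnt effector that marks thalamus, differed by 0.87 ± 0.10 (limma adjusted p = 0.00012). Tbr1 differed by 0.60 ± 0.16. By contrast the vesicular glutamate transporter Slc17a7 of cortex was at 0.12 and did not pass. GABA neuron genes split: parvalbumin, Pvalb (1.51 ± 0.14, dim in CON mice), the interneuron factor Lhx6 (1.13 ± 0.10), Npas1 (0.55 ± 0.14, dim in CON mice) and the GABA-synthesizing enzyme Gad1 (0.49 ± 0.07) were higher, while Dlx2 (-0.73 ± 0.10), Six3 (-0.65 ± 0.12), Dlx6 (-0.45 ± 0.13) and Dlx1 (-0.39 ± 0.08), factors of GABA neuron development that hypothalamus also uses, were lower. Without 1 mouse the calls of Tbr1, Npas1 and Dlx6 were lost (adjusted p up to 0.167, 0.099 and 0.219). Pvalb had 6.33, 6.33 and 6.57 in TSR mice and 4.96, 4.95 and 4.77 in CON mice; Dlx2 had 6.81, 6.63 and 6.77 in TSR mice and 7.53, 7.39 and 7.47 in CON mice.

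Neurofilaments were higher in TSR mice. The medium chain Nefm had 7.87, 8.01 and 7.77 in TSR mice, against 6.90, 6.59 and 6.11 in CON mice (1.35 ± 0.16, limma adjusted p = 0.000175), the light chain Nefl differed by 0.81 ± 0.08 (limma adjusted p = 2.93e-05) and the heavy chain Nefh by 0.74 ± 0.09 (limma adjusted p = 0.000314). Of 16 markers of neurons in general, 7 were higher and 1, the RNA-binding protein Celf4 (-0.39 ± 0.07), was lower. The sodium channel Scn2a differed by 0.38 ± 0.07, but only 1 of its 14 probe sets passed. Further large rises outside the lists were those of the sodium channel subunit Scn4b (1.78 ± 0.15), the anoctamin Ano3 (1.73 ± 0.19), the peptidase neprilysin, Mme (1.61 ± 0.12), the zinc finger gene Zfp804a (1.61 ± 0.11), the syntaxin-binding protein Stxbp6 (1.55 ± 0.09) and the neurokinin receptor Tacr3 (1.37 ± 0.15). Scn4b and Mme were dim in CON mice, and the limma adjusted p of these 6 genes lay at 0.000101 or below.

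Genes of the suprachiasmatic nucleus fell. Of 20 list members 13 were lower and 1 was higher, against 4.71% and 4.85% of all genes, and the median difference was -0.54. The riser was the vasopressin receptor Avpr1a (0.51, lost in 3 of the 6 fits without 1 mouse). Vipr2, the receptor through which VIP synchronizes clock neurons, had 6.32, 6.14 and 6.59 in TSR mice, against 7.78, 7.47 and 7.50 in CON mice (-1.23 ± 0.13, limma adjusted p = 8.95e-05). Its ligand Vip had 5.48, 5.31 and 5.35 in TSR mice, where it was dim, against 6.56, 6.30 and 6.28 in CON mice (-1.0 ± 0.13, limma adjusted p = 0.000396). The G protein regulator Rgs16 had 8.22, 8.16 and 8.33 in TSR mice, against 9.24, 9.35 and 9.33 in CON mice (-1.07 ± 0.08, limma adjusted p = 6.53e-06). In all 3 genes each TSR mouse was below each CON mouse. The Ras-like protein Rasd1 differed by -0.81 ± 0.13 and the homeobox factors Six6 and Six3 by -0.75 ± 0.12 and -0.65 ± 0.12. The mean level of the list was 6.88 to 6.92 in TSR mice and 7.32 to 7.41 in CON mice.

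Of 13 genes of the paraventricular and supraoptic nuclei, 6 were lower and 1 was higher, against 4.71% and 4.85% of all genes. Another 6 did not pass, and the median was -0.30. Without TSR replicate 1, TSR replicate 2 or CON replicate 1, 4 were lower. Trh, the peptide that drives thyrotropin release, had 9.24, 9.41 and 9.33 in TSR mice, against 10.84, 11.06 and 10.69 in CON mice (-1.54 ± 0.09, limma adjusted p = 6.24e-07). Magel2, a gene of the Prader-Willi region, had 7.56, 7.63 and 7.86 in TSR mice, against 8.45, 8.57 and 8.50 in CON mice (-0.82 ± 0.10, limma adjusted p = 0.00016). Otp, which specifies neuroendocrine neurons, had 6.91, 6.73 and 6.93 in TSR mice, against 7.67, 7.53 and 7.64 in CON mice (-0.75 ± 0.10, limma adjusted p = 0.000409). These 3 genes separated the groups completely. Vasopressin, Avp, differed by -0.40 ± 0.08 (limma adjusted p = 0.00484), oxytocin, Oxt, by -0.30 ± 0.07 (limma adjusted p = 0.0185) and Sim1, a factor these neurons need, by -0.39. The member that was higher was Crh, the releasing hormone of the stress axis, with 5.29, 5.32 and 5.32 in TSR mice and 4.65, 4.91 and 4.44 in CON mice, dim in both (0.65 ± 0.16, limma adjusted p = 0.0172). The calls of Oxt and Crh were lost in 4 of the 6 fits that left out 1 mouse and that of Sim1 in 3, with adjusted p up to 0.123 for Oxt, 0.0782 for Crh and 0.091 for Sim1.

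Ventromedial genes were lower in 3 of 10 members and higher in 0, against 4.71% and 4.85% of all genes. The peptide PACAP, Adcyap1, had 6.58, 6.76 and 6.87 in TSR mice, against 7.62, 7.51 and 7.18 in CON mice (-0.70 ± 0.13, limma adjusted p = 0.0033), while Fezf1 (-0.50 ± 0.13) and the progesterone receptor Pgr (-0.40 ± 0.12) passed narrowly, and their calls were lost without 1 mouse (adjusted p up to 0.111 and 0.191), which left 1 without any 1 TSR mouse or CON replicate 1. The appetite peptides of the arcuate nucleus differed little. Npy had 7.29, 7.23 and 6.96 in TSR mice and 6.98, 7.15 and 7.63 in CON mice (-0.09 ± 0.15, limma adjusted p = 0.8), so the groups overlapped. Pomc differed by -0.05 ± 0.14 (limma adjusted p = 0.886) and Cartpt by -0.36 ± 0.12 (limma adjusted p = 0.085). Of the fits tried, Cartpt passed only in that with 20 arrays. Of 13 arcuate peptide genes 2 passed, both lower: galanin, Gal, with 6.45, 6.49 and 6.55 in TSR mice, against 6.98, 7.39 and 7.05 in CON mice (-0.64 ± 0.12, limma adjusted p = 0.00435), and the dopamine-synthesizing enzyme Th (-0.31 ± 0.09, limma adjusted p = 0.0493, up to 0.216 without 1 mouse, any TSR mouse or CON replicate 1).

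Of 20 receptors and signalling genes of feeding, 1 was lower and 0 higher, below the 9.56% of all genes that passed. That gene was the GLP-1 receptor Glp1r, with 6.58, 6.75 and 6.89 in TSR mice, against 7.45, 7.59 and 7.07 in CON mice (-0.63 ± 0.14, limma adjusted p = 0.00955, up to 0.0678 without CON replicate 1). Among 12 genes of orexin, melanin-concentrating hormone (MCH), histamine and arousal, the orexin receptor Hcrtr2 alone passed. It had 7.19, 7.02 and 7.35 in TSR mice, against 6.17, 6.12 and 5.81 in CON mice (1.15 ± 0.13, limma adjusted p = 0.000135). Orexin itself, Hcrt, and the MCH gene Pmch were dim in both groups. Hcrt had 5.50, 5.58 and 5.90 in TSR mice and 5.86, 5.33 and 6.20 in CON mice, with overlapping groups (-0.14 ± 0.20, limma adjusted p = 0.761), and Pmch differed by 0.06 ± 0.21 (limma adjusted p = 0.92).

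Of 21 clock genes with a probe set, 9 were lower and 1, Clock itself (0.30), was higher at ZT7, against 4.71% and 4.85% of all genes. The list median was -0.28. Nr1d1, the repressor REV-ERB alpha, had 9.98, 9.97 and 9.97 in TSR mice, against 10.80, 10.75 and 10.79 in CON mice (-0.81 ± 0.06, limma adjusted p = 9.07e-06). The output factor Dbp had 8.43, 8.42 and 8.46 in TSR mice, against 9.30, 9.31 and 9.12 in CON mice (-0.81 ± 0.08, limma adjusted p = 4.60e-05). Bhlhe41, also called Dec2, had 7.33, 7.48 and 7.42 in TSR mice, against 8.17, 8.49 and 8.13 in CON mice (-0.85 ± 0.11, limma adjusted p = 0.000243). In each of these genes every TSR mouse was below every CON mouse. The period genes Per1 and Per2 differed by -0.62 ± 0.10 and -0.57 ± 0.10 (limma adjusted p = 0.00107 and 0.00238). Per1 had 7.57, 7.59 and 7.67 in TSR mice, against 8.25, 8.36 and 8.07 in CON mice, and Per2 7.05, 6.93 and 7.08 in TSR mice, against 7.48, 7.62 and 7.66 in CON mice.

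Other clock genes did not pass in the main fit. Arntl, which encodes BMAL1, was at -0.11 ± 0.11 (limma adjusted p = 0.648), Per3 at -0.13 ± 0.09 (limma adjusted p = 0.461) and the repressor Ciart at -0.34 ± 0.11 (limma adjusted p = 0.0664). Ciart was borderline: it passed with dim probe sets left out, after quantile normalization, with array weights and with 20 arrays. In the fit with 20 arrays 13 clock genes were lower. Among those that passed, the repressor Cry1 differed by -0.40 ± 0.10, and its call was lost in 4 of the 6 fits without 1 mouse (adjusted p up to 0.131). Leaving out TSR replicate 1 or CON replicate 1 gave 5 lower clock genes, leaving out TSR replicate 2 or 3 gave 6, leaving out CON replicate 3 gave 13, and the call of Clock held only without CON replicate 2.

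The CLOCK and BMAL1 proteins act on the E-box, so the promoters of clock genes were searched for its letters, CACGTG, which read the same on both strands. Of 18 clock genes with a promoter window, 5 held the motif in the window from 250 bases before to 50 bases after the start, among them 3 of the 9 that passed, Per1, Cry1 and Bhlhe41, and 2 of the 9 that did not, Ciart being 1; 7.15% of all 32851 windows hold it. A gene was counted if any of its windows held the motif, and some genes have several, so shares of genes and of windows are unlike measures. The same holds for the motifs below. Per2 had no window and was not searched. The Per1 window is shown because Per1 is the period gene in which a match was found. This window lies on chr11:69098699-69098968, plus strand, build GRCm38.p6, from RefSeq, with the E-box in capitals. No factor binding was measured here.
Per1 promoter: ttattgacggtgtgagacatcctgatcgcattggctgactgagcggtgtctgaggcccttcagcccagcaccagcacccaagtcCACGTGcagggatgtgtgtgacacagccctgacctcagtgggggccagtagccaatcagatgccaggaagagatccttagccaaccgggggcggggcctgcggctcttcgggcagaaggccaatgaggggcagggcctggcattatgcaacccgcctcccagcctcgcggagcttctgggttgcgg

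Genes of motile cilia, which beat on ependymal cells of the ventricle, fell together. Of 23 list members 16 were lower and 0 higher, against 4.71% and 4.85% of all genes, with a median of -0.74. Leaving out 1 mouse gave 14 to 19 lower. Stoml3 had 5.41, 5.33 and 5.38 in TSR mice, against 6.73, 6.66 and 6.40 in CON mice (-1.22 ± 0.13, limma adjusted p = 8.95e-05). Spata18 had 5.59, 5.47 and 5.64 in TSR mice, against 6.84, 6.84 and 6.65 in CON mice (-1.21 ± 0.12, limma adjusted p = 5.47e-05). The adenylate kinase Ak7 had 5.69, 5.68 and 5.74 in TSR mice, against 6.94, 6.80 and 6.71 in CON mice (-1.11 ± 0.12, limma adjusted p = 8.80e-05). All 3 were dim in TSR mice and above the dim level in CON mice. The axonemal dynein Dnah6 (-1.06 ± 0.14) passed with all 3 of its probe sets, and the cilium and flagellum proteins Cfap43, a list member, and Cfap61, Cfap65 and Cfap70, outside the list, differed by -0.90, -1.13, -1.17 and -1.14. Fam216b differed by -1.15. Foxj1, the factor that switches on this programme, was at -0.37 and did not pass (limma adjusted p = 0.118). The mean level of the list was 5.32 to 5.43 in TSR mice, below the dim level, and 6.05 to 6.08 in CON mice.

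Other cells of the ventricle and glia moved in part, in lists to be read against 4.85% higher and 4.71% lower of all genes. The astrocyte filament Gfap had 8.26, 8.46 and 8.39 in TSR mice, against 9.02, 9.30 and 9.09 in CON mice (-0.76 ± 0.09, limma adjusted p = 0.000203), and the glial factor Sox9 8.39, 8.19 and 8.23 in TSR mice, against 8.79, 8.96 and 8.91 in CON mice (-0.62 ± 0.09, limma adjusted p = 0.000525). The glutamate transporter Slc1a3 (-0.32 ± 0.07) and angiotensinogen, Agt (-0.24 ± 0.07), were the other astrocyte genes that passed of 16, and each call was lost without 1 mouse (adjusted p up to 0.0697 and 0.215); 2 astrocyte genes were lower without TSR replicate 1, TSR replicate 3 or CON replicate 1. The astrocyte water channel Aqp4 was at 0.17 and did not pass. Of 15 tanycyte genes 4 were higher and 0 lower: the thyroid hormone-activating enzyme Dio2 (0.76 ± 0.15, limma adjusted p = 0.0059, dim in both groups), the thyroid hormone carrier Slco1c1 (0.64 ± 0.10, limma adjusted p = 0.00135), Crym (0.69 ± 0.20, limma adjusted p = 0.0473) and Frzb (0.58 ± 0.14, dim in both groups). Crym had 6.57, 6.56 and 6.44 in TSR mice, against 5.58, 5.47 and 6.45 in CON mice, where CON replicate 3 overlapped the TSR mice; the calls of Crym and Frzb were lost without 1 mouse (adjusted p up to 0.228 and 0.111), and without any 1 TSR mouse or CON replicate 1 the list held 2 that rose. Rax, the factor that defines tanycytes, was dim in both groups, at 0.03, and did not pass.

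Vessel genes were higher in 7 of 23 members and lower in 1, against 4.85% and 4.71% of all genes. The 1 that fell was Notch3 (-0.43, lost in 3 of the 6 fits without 1 mouse). Without TSR replicate 1 or 2, 4 were higher. The efflux pump Abcb1a had 7.42, 7.52 and 7.55 in TSR mice, against 6.84, 6.62 and 6.59 in CON mice (0.82 ± 0.11, limma adjusted p = 0.000353). The pericyte gene Rgs5 had 7.49, 7.44 and 7.44 in TSR mice, against 6.81, 6.84 and 6.55 in CON mice (0.73 ± 0.11, limma adjusted p = 0.000814). Pecam1, an adhesion protein of endothelium, had 6.39, 6.21 and 6.23 in TSR mice, against 5.62, 5.67 and 5.50 in CON mice, where it was dim (0.68 ± 0.13, limma adjusted p = 0.00359). The groups did not overlap in these genes, while the tight-junction gene Cldn5 was at 0.08 and did not pass. The list's mean level was 6.93 to 6.96 in TSR mice and 6.64 to 6.71 in CON mice. Kdr (0.70 ± 0.16, dim in CON mice) and Kcnj8 (0.69 ± 0.21, dim in both groups) passed with all mice and not without 1 of them (adjusted p up to 0.0914 and 0.241).

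Of 16 genes of myelin and oligodendrocytes 4 passed, and of 15 microglial genes 1. Myelin basic protein, Mbp, had 10.18, 10.22 and 10.19 in TSR mice and 10.27, 10.29 and 10.21 in CON mice (-0.06 ± 0.07, limma adjusted p = 0.702). The list held 3 that were higher, Ermn (0.53 ± 0.11), the galactolipid enzyme Ugt8a (0.53 ± 0.11) and Mal (0.40 ± 0.09), and 1 was lower, the lineage factor Sox10 (-0.53 ± 0.10, limma adjusted p = 0.00518). Sox6 (0.46 ± 0.10) was 1 of 11 precursor genes to pass and the protease Ctss (0.33 ± 0.07) the microglial gene; 9.56% of all genes passed, so these single calls are near the background. Without 1 mouse the calls of Ugt8a, Mal, Sox6 and Ctss were lost, with adjusted p up to 0.0538, 0.0598, 0.0619 and 0.0741; without TSR replicate 2, 1 oligodendrocyte gene was higher. Decorin, Dcn (0.74 ± 0.11, limma adjusted p = 0.00109), was the 1 of 13 meningeal and fibroblast genes to pass, again near that share. Pituitary genes (10), blood cell genes (5) and interferon response genes (11) held 0 that passed by limma; at an unadjusted p below 0.05 they held 0, 1 and 2, against 21.3% of all genes.

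Transcripts of plasma proteins, which the liver makes in bulk, were lower: Serpina1c had 6.04, 6.43 and 6.08 in TSR mice, against 7.31, 7.85 and 7.04 in CON mice (-1.21 ± 0.18, limma adjusted p = 0.000746). Apoa1 had 6.55, 6.72 and 7.01 in TSR mice, against 7.67, 7.79 and 7.77 in CON mice (-0.99 ± 0.12, limma adjusted p = 0.000205), and albumin, Alb, 7.69, 7.56 and 7.69 in TSR mice, against 8.09, 8.53 and 8.15 in CON mice (-0.61 ± 0.11, limma adjusted p = 0.00377). The groups did not overlap. Lbp, which binds bacterial lipopolysaccharide, fell too (-1.19 ± 0.12, limma adjusted p = 4.44e-05). Of 12 genes of choroid plexus and plasma, 5 were lower and 1, the choroid factor Otx2 (0.51 ± 0.15, dim in both groups, adjusted p up to 0.181 without 1 mouse), was higher; the choroid product Ttr was at -0.44 ± 0.11, with an adjusted p up to 0.103 without 1 mouse. Alb in CON mice averaged 5.74, 8.26 and 6.01 at ZT1, ZT7 and ZT13, and was 4.51 in the 1 CON array of usual distribution at ZT19. So the CON mice at ZT7 were the highest CON group. Without any 1 TSR mouse or without CON replicate 1, 3 members of the list were lower.

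**Figure D3:**
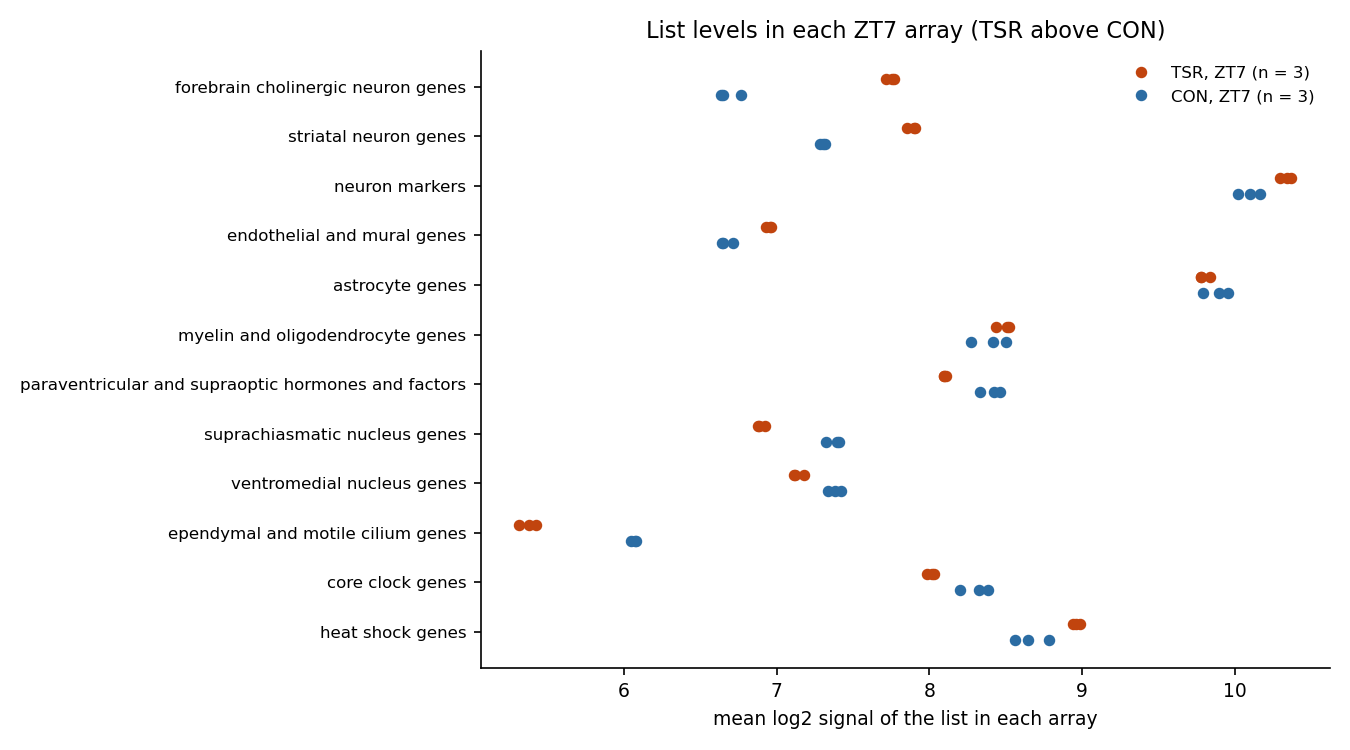
Mean log2 signal of 12 gene lists in each ZT7 array, with TSR mice in orange above CON mice in blue (n = 3 each). The cholinergic list lies at 7.71 to 7.77 in TSR mice and 6.63 to 6.77 in CON mice, the ependymal list at 5.32 to 5.43 in TSR mice and 6.05 to 6.08 in CON mice, and the astrocyte and myelin lists overlap between the groups.

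Lists of the basal forebrain and striatum were thus higher and lists of the suprachiasmatic, paraventricular and ependymal tissue lower in the same mice. The levels of those lists did not overlap between the groups, and their part in the other differences was not tested. Such separation was not particular to them. The microglial list, for example, lay at 6.69 to 6.71 in TSR mice and 6.51 to 6.59 in CON mice.

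Activity-dependent genes changed in part. Egr1, a zinc finger factor induced by neuronal firing, had 7.03, 7.01 and 7.07 in TSR mice, against 6.35, 6.06 and 6.30 in CON mice (0.80 ± 0.12, limma adjusted p = 0.000688). Homer1, whose short form rises with time awake, had 8.43, 8.39 and 8.45 in TSR mice, against 7.78, 7.74 and 7.58 in CON mice (0.72 ± 0.09, limma adjusted p = 0.000205); the annotation used does not say which form the probe set reads. The ERK phosphatase Dusp6 had 7.61, 7.58 and 7.53 in TSR mice, against 6.90, 6.99 and 6.87 in CON mice (0.65 ± 0.09, limma adjusted p = 0.000728). All 3 genes were higher in every TSR mouse than in any CON mouse. Fos had 5.81, 5.99 and 5.80 in TSR mice and 5.76, 5.79 and 6.06 in CON mice, with overlapping groups (0.00 ± 0.14, limma adjusted p = 0.991), and Arc, a synaptic gene, was at 0.37 ± 0.12 and did not pass (limma adjusted p = 0.0692). Arc was borderline, since it passed with dim probe sets left out, after quantile normalization, with array weights and with 20 arrays. Of 29 genes of this list 4 were higher, against 4.85% of all genes, Egr3 being the weakest (0.34 ± 0.10, adjusted p up to 0.172 without 1 mouse). Another 2 were lower, against 4.71% of all genes: Jund (-0.60 ± 0.10) and the peptide precursor Vgf (-0.34, lost without any 1 TSR mouse).

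Chaperones of the endoplasmic reticulum were higher in 4 of 23 members and lower in 0, against 4.85% and 4.71% of all genes. Hspa5, the main chaperone BiP, had 10.81, 10.66 and 10.68 in TSR mice, against 10.19, 10.23 and 10.03 in CON mice (0.57 ± 0.08, limma adjusted p = 0.000436). The disulfide isomerase Pdia6 had 9.55, 9.49 and 9.59 in TSR mice, against 9.14, 9.20 and 8.98 in CON mice (0.44 ± 0.08, limma adjusted p = 0.00316). The co-chaperones Dnajc3 (0.42 ± 0.09) and Dnajb11 (0.39 ± 0.10) passed too, and their calls were lost without 1 mouse (adjusted p up to 0.0547 and 0.124). The stress factors Ddit3 (0.08), Atf4 (0.05) and Xbp1 (0.09) did not pass, and the list median was 0.15. Without TSR replicate 1, 2 members passed, and without CON replicate 2, 8 passed, all higher.

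The endoplasmic reticulum stress element, searched as CCAAT, 9 free bases and CCACG on either strand, is the site of the ATF6 pathway in such promoters. It was found in 7 of the 19 members with a promoter window, against 0.119% of all 32851 windows, in 3 of the 4 that passed and in 4 of the 15 that did not. The sites of the 3 that passed are shown to set their fixed ends, in capitals, beside the free spacer, and the 270 bases around the start of Hspa5 (chr2:34771840-34772109, plus strand, GRCm38.p6, RefSeq) show the element of the member that rose most. A match is a description of these letters only.
Hspa5 element: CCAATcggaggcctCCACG
Pdia6 element: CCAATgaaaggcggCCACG
Dnajc3 element: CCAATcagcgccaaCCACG
Hspa5 promoter: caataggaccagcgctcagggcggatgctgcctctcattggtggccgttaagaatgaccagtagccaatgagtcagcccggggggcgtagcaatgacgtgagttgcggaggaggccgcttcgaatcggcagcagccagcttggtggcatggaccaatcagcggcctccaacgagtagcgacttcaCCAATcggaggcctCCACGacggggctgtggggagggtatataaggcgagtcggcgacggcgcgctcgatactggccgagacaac

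Heat shock genes were higher in 9 of 19 members and lower in 0, against 4.85% and 4.71% of all genes, with a median of 0.35. The list is cytosolic but for the mitochondrial chaperonins Hspd1, 1 of the 9 (0.35 ± 0.09), and Hspe1, which did not pass (0.15 ± 0.15). Dnaja1, a partner of HSP70, had 9.88, 9.87 and 9.77 in TSR mice, against 9.21, 9.57 and 9.27 in CON mice (0.49 ± 0.09, limma adjusted p = 0.00418), though 1 of its 2 probe sets passed. Hspa4l, an exchange factor of HSP70, had 10.22, 10.34 and 10.24 in TSR mice, against 9.79, 9.995 and 9.88 in CON mice (0.38 ± 0.08, limma adjusted p = 0.00569). Chordc1, a partner of HSP90, had 7.98, 8.06 and 8.06 in TSR mice, against 7.13, 8.01 and 6.90 in CON mice (0.68 ± 0.20, limma adjusted p = 0.046). CON replicate 2 overlapped the TSR mice in Chordc1 and stood well above the other 2 CON mice. The count depended on the fit and on single mice: 1 was higher without the limma trend, 0 when all 24 arrays shared 1 spread, 4 without TSR replicate 1, 2 without TSR replicate 2 or 3, 5 without CON replicate 1 and 14 without CON replicate 2. Without 1 mouse the adjusted p was up to 0.226 for Chordc1, 0.0515 for Hspa4l, 0.146 for Dnajb4 (0.38 ± 0.10) and 0.234 for Hspb1 (0.48 ± 0.14, dim in CON mice).

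The heat shock element was searched as GAA, 2 free bases, TTC, 2 free bases and GAA on both strands, where overlapping matches were counted apart. It was found in 4 of 16 heat shock genes with a promoter window, Chordc1, Hspd1, Hsph1 and Hspe1, of which Hspd1 and Hspe1 hold the same sites in 1 shared promoter, against 0.603% of all windows. Chordc1 held 3 overlapping matches at its start (chr9:18292017-18292286, plus strand, GRCm38.p6, RefSeq), shown because they make 1 continuous run, with the fixed bases of all 3 in capitals.
Chordc1 promoter: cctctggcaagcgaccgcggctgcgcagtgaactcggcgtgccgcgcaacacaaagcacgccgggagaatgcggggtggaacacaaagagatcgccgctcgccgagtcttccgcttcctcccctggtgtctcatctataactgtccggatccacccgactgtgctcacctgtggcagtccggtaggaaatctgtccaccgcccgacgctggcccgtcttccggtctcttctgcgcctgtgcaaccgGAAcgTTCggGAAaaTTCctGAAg

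RNA-binding proteins that rise when tissue cools were lower: Cirbp had 7.99, 8.06 and 8.20 in TSR mice, against 8.84, 8.89 and 8.56 in CON mice (-0.68 ± 0.10, limma adjusted p = 0.000784). Rbm3 had 10.30, 10.33 and 10.41 in TSR mice, against 10.62, 10.68 and 10.65 in CON mice (-0.30 ± 0.07, limma adjusted p = 0.0105, up to 0.0849 without 1 mouse), and all 3 of its probe sets passed. No temperature was measured in these data. Ptgds, which makes the sleep-promoting prostaglandin D2, had 10.42, 10.40 and 10.40 in TSR mice, against 9.82, 9.69 and 9.84 in CON mice (0.62 ± 0.07, limma adjusted p = 0.000133), and the collagen hydroxylase P4ha1 differed by 0.38 ± 0.09 (up to 0.106 in adjusted p without 1 mouse). Including Homer1, this list of 12 genes held 3 higher and 2 lower, against 4.85% and 4.71% of all genes.

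Genes that respond to glucocorticoids gave a mixed picture, with 3 of 19 higher and 1 lower, against 4.85% and 4.71% of all genes. The kinase Sgk1 had 7.59, 7.60 and 7.70 in TSR mice, against 6.78, 6.91 and 6.76 in CON mice (0.81 ± 0.10, limma adjusted p = 0.000201). Tsc22d3, also called Gilz, had 7.12, 7.44 and 7.28 in TSR mice, against 6.75, 6.64 and 6.47 in CON mice (0.66 ± 0.12, limma adjusted p = 0.00294). Both separated the groups. Zbtb16 was higher (0.47 ± 0.10) and the metallothionein Mt2 lower (-0.37 ± 0.08), with adjusted p up to 0.071 and 0.062 without 1 mouse. Fkbp5, the receptor's co-chaperone and a common readout of this hormone, had 6.83, 6.82 and 6.72 in TSR mice and 6.60, 6.87 and 6.78 in CON mice (0.04 ± 0.11, limma adjusted p = 0.903). Cholesterol synthesis genes were higher in 3 of 18 and lower in 0, namely Hsd17b7 (0.49 ± 0.11), Idi1 (0.47 ± 0.12, 1 of 2 probe sets) and Cyp51 (0.45 ± 0.11), and each call was lost without 1 mouse (adjusted p up to 0.1, 0.123 and 0.0851). Of these 18, 0 were higher without TSR replicate 1 or 2, 1 without TSR replicate 3 or CON replicate 1, and 5 without CON replicate 2.

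Receptor subunits moved both ways, 5 higher and 3 lower of 27; without CON replicate 2, 14 were higher, without CON replicate 3, 6 were lower, and without TSR replicate 1 or CON replicate 1, 3 were higher and 1 lower. Without TSR replicate 2 or 3, 3 were higher. With all 6 arrays 4.85% of all genes were higher and 4.71% lower. The GABA-A subunit Gabrb2, common in forebrain, had 10.77, 10.77 and 10.72 in TSR mice, against 9.79, 9.81 and 9.55 in CON mice (1.04 ± 0.08, limma adjusted p = 6.53e-06, all 3 probe sets). The subunit Gabre, typical of hypothalamus, had 7.18, 7.09 and 7.14 in TSR mice, against 8.29, 8.57 and 7.82 in CON mice (-1.09 ± 0.15, limma adjusted p = 0.000436). Neither overlapped between groups, and they ran in opposite directions. The glutamate receptors Grm3 (0.60 ± 0.08) and Grin2a (0.55 ± 0.10) were higher as well, and Gabrd (0.58 ± 0.16, dim in CON mice) was higher with an adjusted p up to 0.185 without 1 mouse. Neuroglobin, Ngb, had 8.05, 8.16 and 8.30 in TSR mice, against 9.44, 9.46 and 9.18 in CON mice (-1.19 ± 0.10, limma adjusted p = 9.55e-06).

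Small noncoding RNAs were among the deepest falls, with 7 of 15 members lower and 1 higher, against 4.71% and 4.85% of all genes. Without any 1 TSR mouse or CON replicate 1, 5 were lower and 0 higher. The Y RNA Rny1 had 9.39, 9.39 and 9.03 in TSR mice, against 10.37, 11.31 and 10.08 in CON mice (-1.32 ± 0.22, limma adjusted p = 0.00196). The 5S ribosomal RNA gene n-R5s136 had 8.50, 8.29 and 8.31 in TSR mice, against 9.68, 9.84 and 9.51 in CON mice (-1.31 ± 0.09, limma adjusted p = 5.11e-06). AY036118, which is outside the list, had 8.80, 8.94 and 8.99 in TSR mice, against 10.13, 10.46 and 10.03 in CON mice (-1.30 ± 0.10, limma adjusted p = 8.96e-06). The snoRNA Snord33 (-0.97 ± 0.15), Rny3 (-0.67 ± 0.09, with CON replicate 2 missing) and the RNase P RNA Rpph1 (-0.41 ± 0.06) fell too. The list members are multicopy or very short RNAs, so the copy a probe set reads is uncertain. The same holds for Srsy, a multicopy Y-linked gene, with 4.87, 5.04 and 5.13 in TSR mice, where it was dim, against 6.27, 6.35 and 5.97 in CON mice (-1.18 ± 0.15, all 19 probe sets).

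**Figure D4:**
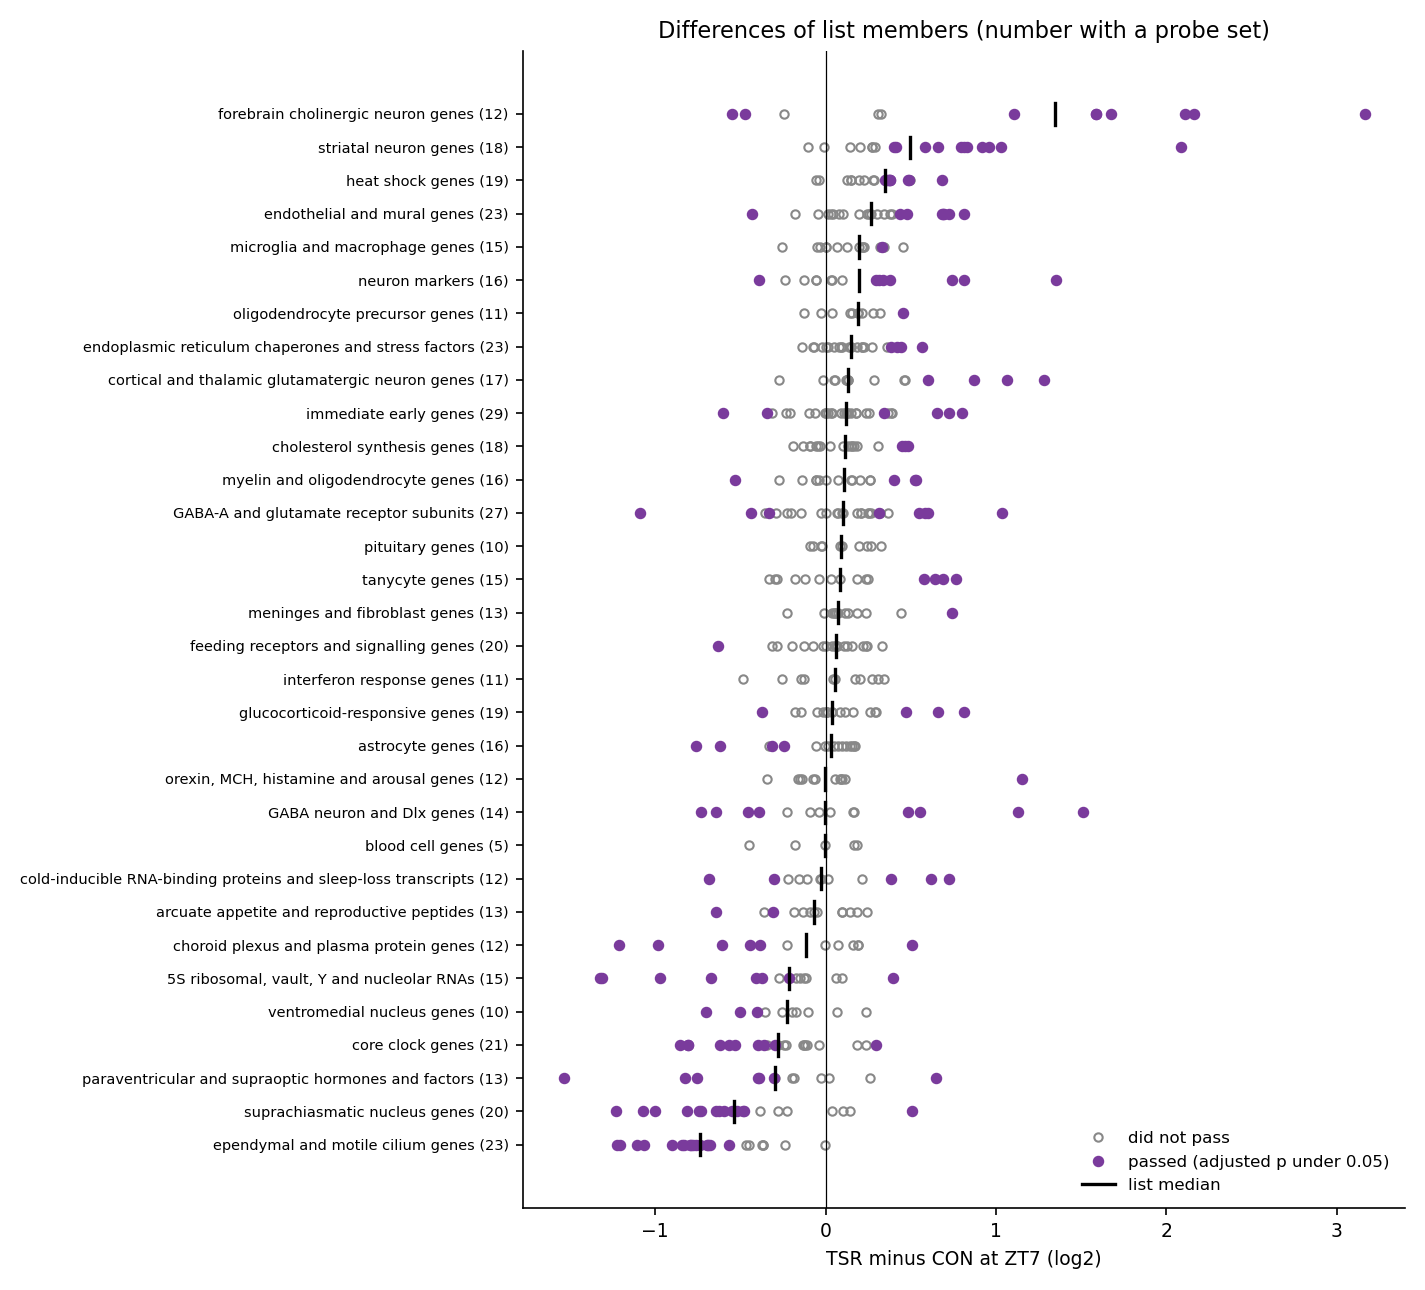
TSR minus CON at ZT7 (log2) for the members of 32 gene lists, with the number of members that had a probe set in parentheses; filled points passed, open points did not, and black bars are list medians. The medians run from -0.74 for ependymal and motile cilium genes to 1.34 for forebrain cholinergic neuron genes.

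The counts of several lists were lower without the limma trend. The number higher was then 3 of 16 general neuron markers, 0 of 18 cholesterol genes, 0 of 16 myelin genes, 3 of 27 receptor subunits and 2 of 23 endoplasmic reticulum genes, and the number lower was 4 of 13 paraventricular, 1 of 10 ventromedial, 2 of 16 astrocyte and 1 of 27 receptor subunit genes. Clock genes then held 6 lower and 0 higher of 21, and noncoding RNAs 5 lower and 0 higher of 15. Immediate early genes held 3 higher and 1 lower of 29, and vessel genes 6 higher and 0 lower of 23. The cholinergic, striatal, ependymal and suprachiasmatic counts were as with the trend.

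The ZT7 difference was set against the mean difference at ZT1, ZT13 and ZT19 in a fit of the 20 arrays of usual distribution; in this fit the CON group at ZT19 rests on 1 array, whose spread is taken to be that of the other groups. The contrast passed for 1477 genes (7.41%), 567 more positive at ZT7 (2.84%) and 910 more negative (4.56%). The contrast was more positive in 7 and more negative in 1 of 12 cholinergic genes, more positive in 12 and more negative in 0 of 18 striatal genes, and more negative in 12 of 23 ependymal, 8 of 20 suprachiasmatic and 8 of 21 clock genes with 0 more positive in each. It was more positive in 9 of 19 heat shock genes, 7 of 29 immediate early genes and 2 of 23 chaperone genes of the endoplasmic reticulum, the last near the share of all genes, with 0 more negative in each. Other lists with calls at ZT7 were mixed in the contrast: of 15 noncoding RNAs 1 was more positive and 1 more negative, of 13 paraventricular genes 1 was more positive and 3 more negative, and of 23 vessel genes 4 were more positive and 1 more negative. Of 15 tanycyte genes, 4 of which were higher at ZT7, 1 was more positive and 4 were more negative in the contrast, and of 18 cholesterol genes 0 were more positive and 2 more negative.

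Single genes followed several courses over the day. Hspa5 differed by -0.24 at ZT1, 0.57 at ZT7, 0.10 at ZT13 and 0.14 at ZT19, and its contrast was 0.57 (limma adjusted p = 0.000122). Egr1 differed by -0.26, 0.80, -0.41 and 0.46 at these times (contrast 0.87, limma adjusted p = 3.74e-05), so its difference was highest at ZT7. Nr1d1 was low at ZT7 and ZT13, by -0.81 and -0.77, and near 0 at ZT1 and ZT19, by 0.11 and 0.04. Cirbp changed sides, at 0.47 at ZT1 and -0.68 at ZT7, and Gfap did too, at 0.92 at ZT1 and -0.76 at ZT7. Sgk1 did not stand apart at ZT7 by this contrast (0.09, limma adjusted p = 0.645), with 1.09 at ZT1, 0.81 at ZT7, 0.23 at ZT13 and 0.83 at ZT19.

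Albumin had the second most negative contrast among the named genes (-3.63, limma adjusted p = 1.11e-11): it was 4.17 at ZT1, -0.61 at ZT7, 1.10 at ZT13 and 3.78 at ZT19, and Serpina1c had the most negative (-4.37). Cyp2e1, a liver cytochrome P450, had a contrast of -1.82 (limma adjusted p = 1.48e-06), with a difference of 2.76 at ZT1, -0.33 at ZT7, 0.15 at ZT13 and 1.54 at ZT19; at ZT7 alone it did not pass (limma adjusted p = 0.164). Over all genes the ZT7 differences correlated with those at ZT13 with a Pearson r of 0.45, at ZT19 with 0.25 and at ZT1 with -0.02; these values describe 19938 genes (19937 at ZT19) of separate mice, and genes are not independent replicates.

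**Figure D5:**
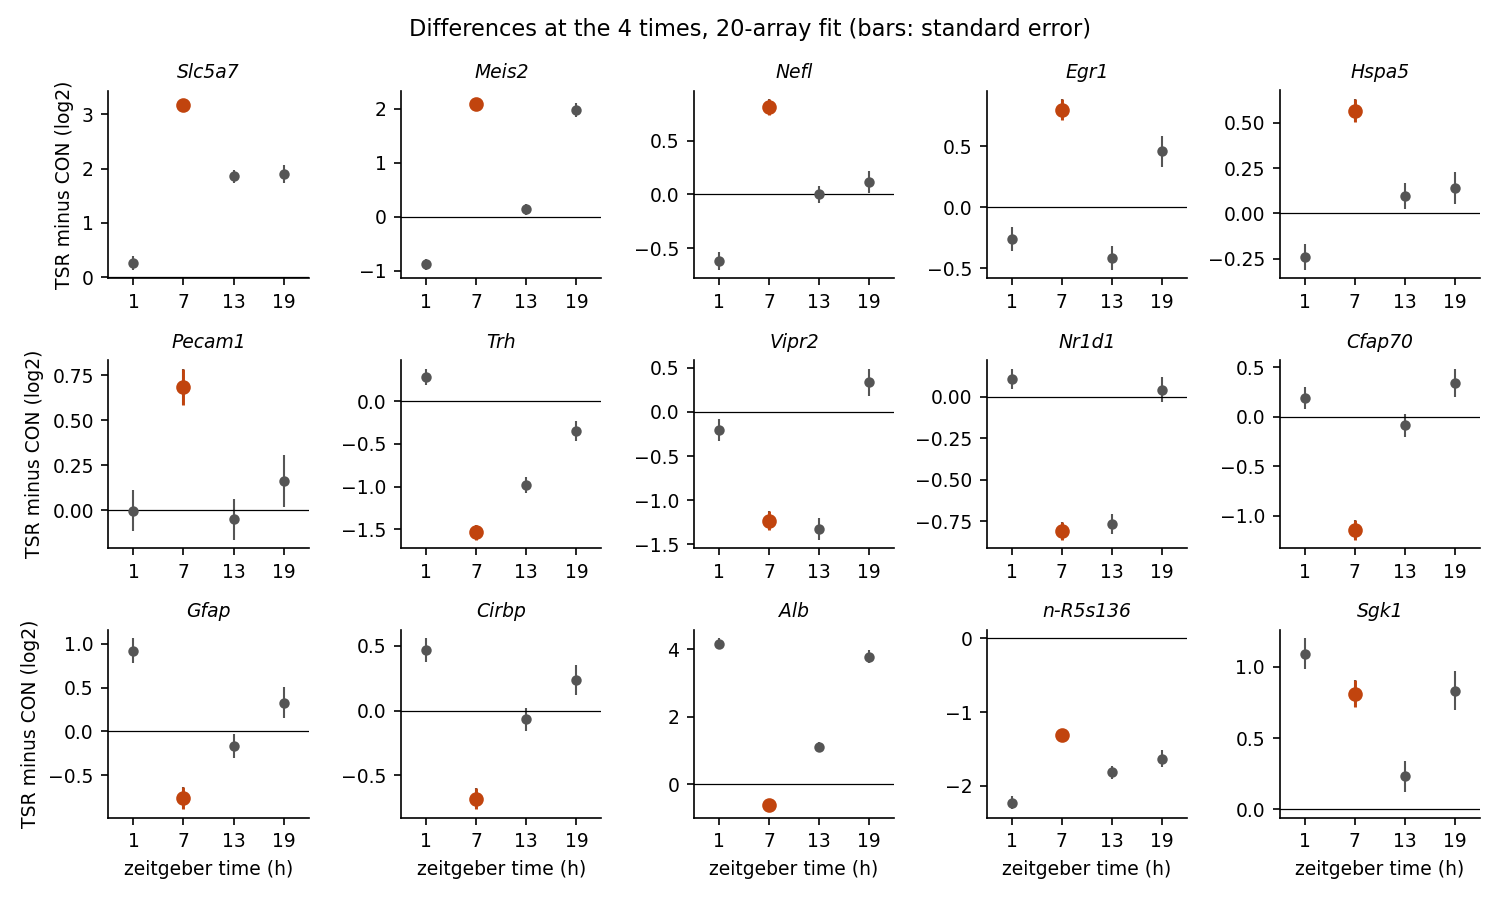
TSR minus CON (log2) at ZT1, ZT7, ZT13 and ZT19 for 15 genes in the 20-array fit, with standard errors; the ZT7 value is in orange and each panel has its own vertical scale. Hspa5, Nefl and Pecam1 are highest at ZT7, Nr1d1 and Vipr2 are low at ZT7 and ZT13, and Alb and Gfap lie above 0 at ZT1 and below 0 at ZT7.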

How the data were processed

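RNA of the mediobasal hypothalamus was measured on Affymetrix arrays. Per the labels' protocols, Trizol was used for extraction and Affymetrix's GeneChip WT Terminal Labeling Kit for labelling. Affymetrix Expression Console is the software in the submitters' processing notes; how it corrected, normalized and summarized the probes is not given. The deposited log2 signals of probe sets were used after the repair below, and their precision is limited by the number of arrays.

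In some deposited cells the decimal point was misplaced. Cells were moved by factors of 10 back to the log2 range, to the place nearest to the other arrays: 185 of 130734 cells of the named probe sets at ZT7 (0.142%). Another 14 cells with lost digits count as missing. The median absolute deviation from the other arrays was 0.125 in the restored cells and 0.119 in the others.

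Of 35556 probe sets, 21789 with exactly 1 symbol in the array annotation were kept, 21698 of them matched by Entrez number to genes of GRCm38.p6; 1621 with several symbols and 12146 with none were left out. A gene is described by its probe set with the highest mean. Groups come from the array titles. The fit used limma 3.58.1 in R 4.3.3 on the 6 arrays (2 group means, empirical Bayes with a trend, no filter on level), and the contrast against other times used 20 arrays, leaving out 4 with an interquartile range below 2.5. The fit was tested on simulated data.

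The comparison, gene lists and named genes were chosen with earlier results of these data known. Named are the 15 largest rises and falls whose groups do not overlap and whose higher mean is not dim, up to 5 passing members of each list, a set of 35 genes whatever their result, and the 5 most positive and 5 most negative contrasts against other times. Ngfr, Ecel1, Zic4, Ache, Isl1, Slc17a7, Gad1, Dlx6, Dlx1, Avpr1a, Sim1, Nr5a1, Clock, Foxj1, Aqp4, Rax, Notch3, Cldn5, Vgf, Ddit3, Atf4 and Xbp1 were named after their values were seen, as were Hspd1, Hspe1 and Hsph1. Alternatives were other normalizations, moderation and array sets, the replicate number as a block, and leaving out each array. Promoters are RefSeq windows of 300 bases.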

Additional observations from a re-analysis of the deposited data

Results flagged for a closer look

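For 86 of the 166 named genes the difference of TSR minus CON at ZT7 differed from the mean of the differences at ZT1, ZT13 and ZT19 (limma contrast in 20 arrays, adjusted p of 0.0475 or less, 3 TSR and 3 CON mice at ZT7); 41 were more negative at ZT7 and 45 more positive. Each value is on the log2 scale and is the difference of TSR minus CON at ZT7 minus the mean of the same difference at the other 3 times. Over all genes 7.41% passed in this contrast, but the named genes were chosen partly for their size at ZT7 or in the contrast itself, so their count is not compared with that share. Among plasma, liver and choroid plexus genes, the contrast was -4.37 for Serpina1c, -3.63 for Alb, -2.23 for Apoa1, -1.82 for Cyp2e1 and -1.75 for Ttr. Among genes of motile cilia and flagella, with Fam216b, the contrast was -1.29 for Cfap70, -1.18 for Cfap61, -1.12 for Dnah6, -1.02 for Spata18, -1.01 for Ak7, -0.98 for Fam216b, -0.76 for Cfap65, -0.75 for Cfap43 and -0.67 for Stoml3. Among suprachiasmatic, paraventricular and ventromedial genes, the contrast was -1.19 for Trh, -0.87 for Adcyap1, -0.84 for Vipr2, -0.74 for Vip, -0.73 for Rgs16, -0.43 for Rasd1, -0.42 for Sim1 and -0.40 for Avp. Among clock genes, the contrast was -0.60 for Nr1d1, -0.50 for Per1, -0.43 for Ciart, -0.43 for Dbp and -0.39 for Bhlhe41. Among astrocyte genes, the contrast was -1.12 for Gfap, -0.51 for Aqp4, -0.38 for Agt, -0.31 for Slc1a3 and -0.30 for Sox9. Among cholinergic genes, the contrast was -0.49 for Zic4, 0.92 for Lhx8, 0.92 for Ngfr, 1.02 for Slc10a4, 1.20 for Chrm2, 1.54 for Slc18a3, 1.59 for Chat and 1.82 for Slc5a7. Among striatal genes, the contrast was 0.56 for Drd1, 0.71 for Rarb and 1.68 for Meis2. Among cortical, thalamic and GABA neuron genes, the contrast was -0.95 for Slc17a7, 0.34 for Mef2c, 0.35 for Gad1, 0.61 for Tcf7l2, 0.68 for Foxp2, 0.70 for Npas1, 0.82 for Pvalb and 1.06 for Lhx6. Among neurofilaments, the contrast was 0.63 for Nefh, 0.98 for Nefl and 1.13 for Nefm. Among activity-dependent genes, the contrast was 0.30 for Homer1, 0.49 for Arc, 0.53 for Dusp6, 0.60 for Egr3 and 0.87 for Egr1. Among chaperone and heat shock genes, the contrast was 0.30 for Hspa4l, 0.37 for Pdia6, 0.40 for Dnaja1, 0.45 for Hsph1, 0.57 for Hspa5 and 0.91 for Hspb1. Among cold-inducible and glucocorticoid-responsive genes, the contrast was -0.89 for Cirbp, -0.63 for Rbm3, -0.51 for Mt2 and 0.42 for Zbtb16. Among receptors, vessel, tanycyte and noncoding genes, the contrast was -0.89 for Gabre, -0.62 for Glp1r, 0.45 for Hcrtr2, 0.50 for Gabrb2, 0.59 for n-R5s136, 0.65 for Pecam1, 0.70 for Kdr, 0.78 for Gabrd and 0.84 for Crym. Among genes in no list, the contrast was -0.91 for Lbp, -0.80 for Ngb, 0.74 for Tacr3, 0.84 for Stxbp6, 1.02 for Ano3, 1.06 for Mme, 1.19 for Zfp804a and 1.80 for Scn4b. For n-R5s136 the difference was -2.23 at ZT1, -1.31 at ZT7, -1.82 at ZT13 and -1.64 at ZT19, so it was negative at all 4 times.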

How the results depend on the processing

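Several alternatives, among them no trend, robust moderation and fits with 20 or 24 arrays, compare the same ZT7 group means, so no sign could change there. Of 2226 probe sets that passed at ZT7, none took the opposite sign in any alternative tried. The count was 1128 without the trend, 4962 with array weights, 83 when all 24 arrays shared 1 spread, of which all 83 had passed before, and 3531 with the 20 arrays of usual distribution; without 1 array it ranged from 1061 to 3183, and 58.2% of the calls were higher without CON replicate 2 and 41.4% without CON replicate 3, against 47.9% with all 6 arrays. Why so few passed with all 24 arrays was not tested. The other settings (dim probe sets left out, quantile normalization, median centring, robust moderation, restored cells left blank, 1 probe set a gene) gave 1961 to 3110. The contrast against the other times passed for 1695 probe sets, for 10 when all 24 arrays were used, and for 900 to 3698 without 1 ZT7 array; without CON replicate 3 it was 3698. Against ZT1 and ZT13 alone 1184 passed, and after quantile normalization 2278. The replicate numbers did not pair the mice (correlations of same-numbered deviations of -0.02, 0.08 and -0.06); with the replicate number as a block 2238 probe sets passed at ZT7 and 1531 in the contrast. Of the 141 named genes that passed, 96 passed in all 6 fits without 1 array, and 117 no longer passed when all 24 arrays shared 1 spread. Each call without 1 array rests on 5 mice, so a lost call there also reflects fewer samples. Quantile normalization and centring moved the median of all probe sets to 0.00 and 0.04, from 0.02. Dim levels limit the size of differences of genes dim in 1 group.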
